A study of Mus musculus with 2 samples.

Results

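The genes described here are the 10 that build and regulate MHC class II antigen presentation in the mouse: the invariant chain gene Cd74, the classical chain genes H2-Aa, H2-Ab1 and H2-Eb1, the H2-DM genes H2-DMa, H2-DMb1 and H2-DMb2, the H2-O genes H2-Oa and H2-Ob, and the coactivator gene Ciita. They were taken by exact symbol from the 27998 genes listed in the count matrices, and all 10 were found. CD45.1+ leukocytes infiltrating the islets were sorted from NOD/ShiLtJ females aged 12 weeks and 7 weeks, and each age is represented by 1 droplet library of the 10x 3′ type. The NOD mouse is an inbred strain that develops autoimmune diabetes spontaneously, and both ages share that genetic background, with no transgene or treatment named. How many mice were pooled, and whether any of them was diabetic, is not given in the sources used here.

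MHC class II molecules display peptides from the endosomal pathway to CD4 T cells. The classical alpha and beta chains assemble in the endoplasmic reticulum around the invariant chain, which blocks the peptide groove and steers the complex to endosomes, where proteases trim it to a short fragment called CLIP. H2-DM then removes CLIP and favours tightly bound peptides, and H2-O binds H2-DM and inhibits it. Transcription of these genes depends on CIITA, which docks on the RFX, CREB and NF-Y proteins bound at the X and Y boxes of their promoters. NOD mice carry a distinctive A beta chain, and they lack the E alpha chain, so that the product of H2-Eb1 has no partner at the cell surface.

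Of the genes, 8 lie together on mouse chromosome 17, between positions 34092340 and 34316674 of build GRCm38, a span of 224.3 kb. In the GENCODE annotation H2-Oa is at chr17:34092340-34095234, H2-DMa at chr17:34119541-34139101, H2-DMb2 at chr17:34143307-34151555 and H2-DMb1 at chr17:34153072-34160230. H2-Ob follows at chr17:34238903-34254414, H2-Ab1 at chr17:34257689-34269419, H2-Aa, on the minus strand, at chr17:34282744-34287823 and H2-Eb1 at chr17:34305867-34316674. Ciita is on chromosome 16 (chr16:10480059-10528418).

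The stretches of promoter that hold the Y-box letters are shown as a description and were not set against expression. They come from RefSeq's promoter windows on GRCm38.p6 (250 bases before to 50 after a start site), and each is 65 bases long, read on the gene's own strand. Capitals mark the Y box, searched as TGATTGG, and the core of the X box, searched as AACNNATGA, both on either strand. The X-box letters were chosen after these promoters had been seen. The positions are chr17:34305760-34305824 for H2-Eb1, chr17:34287855-34287919 (minus strand) for H2-Aa, chr17:34153082-34153146 for H2-DMb1, chr17:34145111-34145175 for H2-DMb2, chr17:34092288-34092352 for H2-Oa and chr17:34238800-34238864 for H2-Ob.
H2-Eb1: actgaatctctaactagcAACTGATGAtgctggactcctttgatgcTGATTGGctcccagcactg
H2-Aa: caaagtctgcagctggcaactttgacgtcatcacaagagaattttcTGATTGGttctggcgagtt
H2-DMb1: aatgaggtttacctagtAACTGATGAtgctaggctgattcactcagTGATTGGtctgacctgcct
H2-DMb2: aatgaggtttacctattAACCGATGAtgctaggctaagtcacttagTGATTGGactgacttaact
H2-Oa: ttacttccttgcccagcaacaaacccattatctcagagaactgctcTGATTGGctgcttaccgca
H2-Ob: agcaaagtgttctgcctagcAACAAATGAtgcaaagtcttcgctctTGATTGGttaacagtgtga

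Of the 7 genes with a promoter window, 6 held the Y box (all but H2-DMa), against 7.82% of all 32851 windows. The X-box core, whose letters were chosen after these promoters had been seen, stood in 4 of the 7, against 2.85% of all windows. Both motifs occurred together in 101 windows (0.307%), and 4 of these were those of H2-Eb1, H2-DMb1, H2-DMb2 and H2-Ob. The H2-DMb1 and H2-DMb2 windows matched at 84.2% of 247 aligned bases. Because of that choice of letters, the X-box and joint counts cannot measure an excess over all windows. A match is a description of these letters in this window and was not tested for binding.

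Cells were assigned to classes by counts of unique molecular identifiers (UMIs, each tagging 1 captured RNA molecule) of marker genes that are not among the 10. B cells had at least 2 UMIs of Cd79a. Macrophages had at least 10 UMIs of the C1q genes C1qa, C1qb and C1qc together. Plasmacytoid dendritic cells (pDCs) had at least 3 UMIs of Siglech. Dendritic cells had at least 10 UMIs of Cst3, at most 5 of C1q and none of Siglech. T cells, kept as a background, had at least 1 UMI of the CD3 genes Cd3d, Cd3e and Cd3g and none of Cd79a. Cells that met more than 1 of the first 4 definitions were set aside, and a T cell had to meet none of them.

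At 12 weeks this gave 654 B cells, 33 macrophages, 49 pDCs, 170 dendritic cells and 1603 T cells of 2741 cells kept. At 7 weeks it gave 175, 11, 29, 71 and 738 of 1099 cells kept. Median depth at 12 weeks was 4623 UMIs per B cell, 12868 per macrophage, 7781 per pDC, 12624 per dendritic cell and 4761 per T cell, and at 7 weeks 5161, 11438, 9994, 14287 and 5439. A threshold on raw UMIs favours deeply sequenced cells, so the dendritic class is one of cells with much RNA. Only 2 barcodes occurred in both libraries.

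The labels were checked with markers that the definitions did not use. The B cell list (Ms4a1, Cd79b, Ebf1, Pax5) summed to 35.2 UMIs per 10000 in B cells at 12 weeks and 30.5 at 7 weeks, and to 0.622 and 0.266 in dendritic cells. The macrophage list (Csf1r, Adgre1, Apoe, Cd68, Mertk, Lyz2) summed to 289.8 and 191.6 in macrophages, and to 30.1 and 21.8 in dendritic cells, so that the dendritic class also holds cells with monocyte or macrophage transcripts. The pDC list (Bst2, Tcf4, Ccr9, Irf8, Spib, Klk1) summed to 120.9 and 78.8 in pDCs. The dendritic list (Flt3, Zbtb46, Itgax, Xcr1, Clec9a, Cd209a, Ccr7) summed to only 5.27 and 5.32 in dendritic cells, below the 8.53 and 6.33 in pDCs, and did not set these classes apart.

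Other cells were present in these classes. At 12 weeks 13 of the 170 dendritic cells, and at 7 weeks 1 of 71, held at least 50 UMIs of hormone or stromal genes, and endocrine transcripts (Ins1, Ins2, Gcg) made up 234.7 UMIs per 10000 of the class at 12 weeks against 0.229 at 7 weeks. CD3 transcripts were at 0.766 UMIs per 10000 in macrophages at 12 weeks and 4.06 at 7 weeks, at 1.33 and 7.44 in pDCs, and at 1.97 and 5.43 in dendritic cells. In B cells they were at 1.59 and 1.57. Calls between the ages that changed without the endocrine and stromal cells, or without B cells of 3 or more CD3 UMIs, are named beside them. When macrophages, pDCs and dendritic cells with a CD3 UMI were left out, only the MHC class II presentation genes listed above were compared again. Calls that then changed are named beside them or with the processing alternatives. Calls of other genes in these classes were not redone without such cells, so a missing remark does not mean that they held. The part of these cells in the other differences was not tested.

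The 10 genes together took up a large part of the transcriptome of every presenting class. They accounted for 389.8 UMIs per 10000 in B cells at 12 weeks and 321 at 7 weeks, 871 and 752 in macrophages, 203.9 and 180.4 in pDCs, and 544 and 514 in dendritic cells. T cells held 13.1 and 13.7, and 5 of the 1603 T cells at 12 weeks and 5 of the 738 at 7 weeks carried 45.3% and 51.8% of these UMIs. The unit divides by all UMIs of the class, so it is a share of RNA and not a number of molecules per cell. A 3′ UMI counts a molecule once whatever its length, so levels of different genes need no length correction, although capture can differ between genes.

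Single cells showed the same ranking. The median cell held 441 UMIs of the 10 genes per 10000 among B cells at 12 weeks and 367 at 7 weeks, 859.6 and 709.5 among macrophages, 216 and 232 among pDCs, 646 and 556 among dendritic cells, and 4.46 and 4.55 among T cells. Among B cells the quartiles lay at 377 and 506 at 12 weeks and at 292 and 429.9 at 7 weeks.

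**Figure D1:**
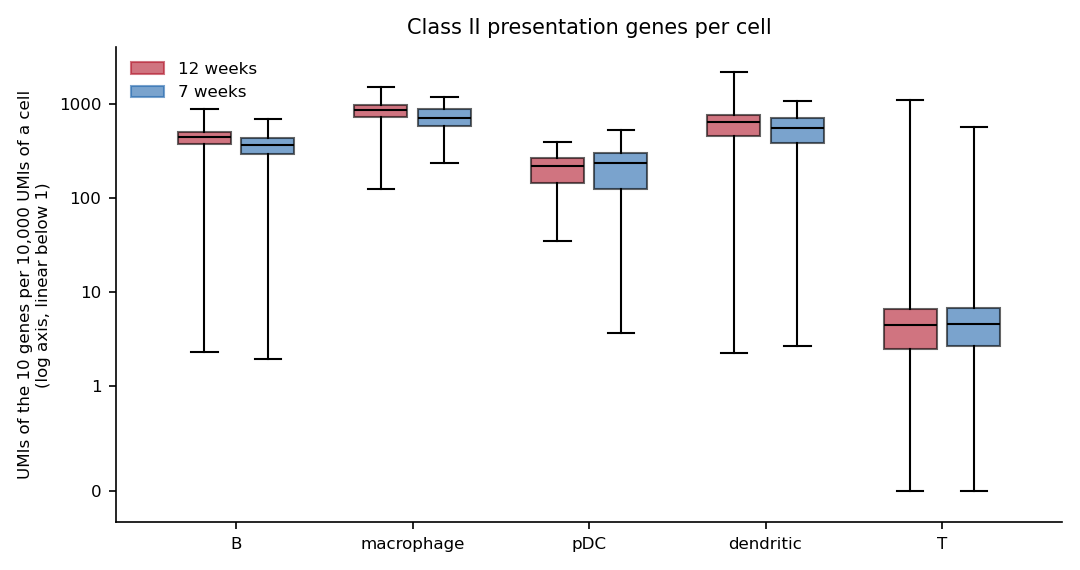
Summed UMIs of the 10 genes per 10000 UMIs of a cell (vertical axis, logarithmic above 1) in each class, at 12 weeks (red) and 7 weeks (blue). Boxes span the quartiles with a line at the median and whiskers reach the lowest and highest cell. The median macrophage, at 859.6 and 709.5, lies highest and the median T cell, at 4.46 and 4.55, lowest.

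At the edges of the definitions, 9 cells with exactly 2 Cd79a UMIs had a median of 4.37 UMIs of the 10 genes per 10000 at 12 weeks, and 156 cells with 1 had 5.29. At 7 weeks 5 cells with 2 had 157 and 46 cells with 1 had 5.12. Cells with 10 to 14 Cst3 UMIs held 451 and 324 at 12 and 7 weeks, and those with 5 to 9 held 4.87 and 4.49. For C1q, 5 cells with 10 to 29 UMIs at 12 weeks held 707 and 8 cells with 4 to 9 held 366. At 7 weeks 2 cells with 10 to 29 held 471. For Siglech, 5 cells with 3 or 4 UMIs at 7 weeks held 16.1 and 29 cells with 1 or 2 held 12.8, so that part of the small 7-week pDC class carried little class II RNA. At 12 weeks 26 cells with 1 or 2 Siglech UMIs held 410.4. Cells with 1 CD3 UMI held 6.07 at 12 weeks and 5.83 at 7 weeks, and cells with no CD3 UMI and in no other class held 43.2 and 7.66.

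Cd74, the invariant chain gene (chr18:60803848-60812652 on GRCm38), was the most abundant of the 10 in all 4 presenting classes. Its level was 179.6 UMIs per 10000 in B cells at 12 weeks and 149.9 at 7 weeks, 347 and 310 in macrophages, 94.3 and 86.3 in pDCs, 210.1 and 202 in dendritic cells, and 4.39 and 4.67 in T cells. The order macrophage, dendritic, B, pDC, T was the same at both ages, and no neighbours in it had overlapping 95% counting intervals. These intervals, exact Poisson for levels, conditional binomial for ratios, Clopper-Pearson for shares and Newcombe for differences of shares, cover counting error only. With 1 library per age there is no replicate check and no test.

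The classical chains followed the same order of classes. H2-Aa, the alpha chain of I-A, stood at 77.5 UMIs per 10000 in B cells at 12 weeks and 62.4 at 7 weeks, 195 and 160.1 in macrophages, 42.5 and 37.4 in pDCs, and 120.0 and 109.4 in dendritic cells. H2-Ab1, its beta chain, stood at 55.3 and 42.7 in B cells, 158 and 133.6 in macrophages, 34.0 and 30.1 in pDCs, and 106 and 98.3 in dendritic cells. H2-Eb1, the beta chain left without a partner in NOD mice, stood at 49.0 and 41.8 in B cells, 147 and 124 in macrophages, 22.4 and 18.9 in pDCs, and 81.8 and 81.1 in dendritic cells. In all 4 presenting classes the order of the genes was Cd74, H2-Aa, H2-Ab1, H2-Eb1 at both ages, so the chain without a partner was transcribed as well. The counting intervals of H2-Ab1 and H2-Eb1 overlapped at 7 weeks in B cells and in macrophages. The NOD alleles differ from the C57BL/6 sequence of mm10, and whether that lowered the counts of the polymorphic chains was not tested.

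**Figure D2:**
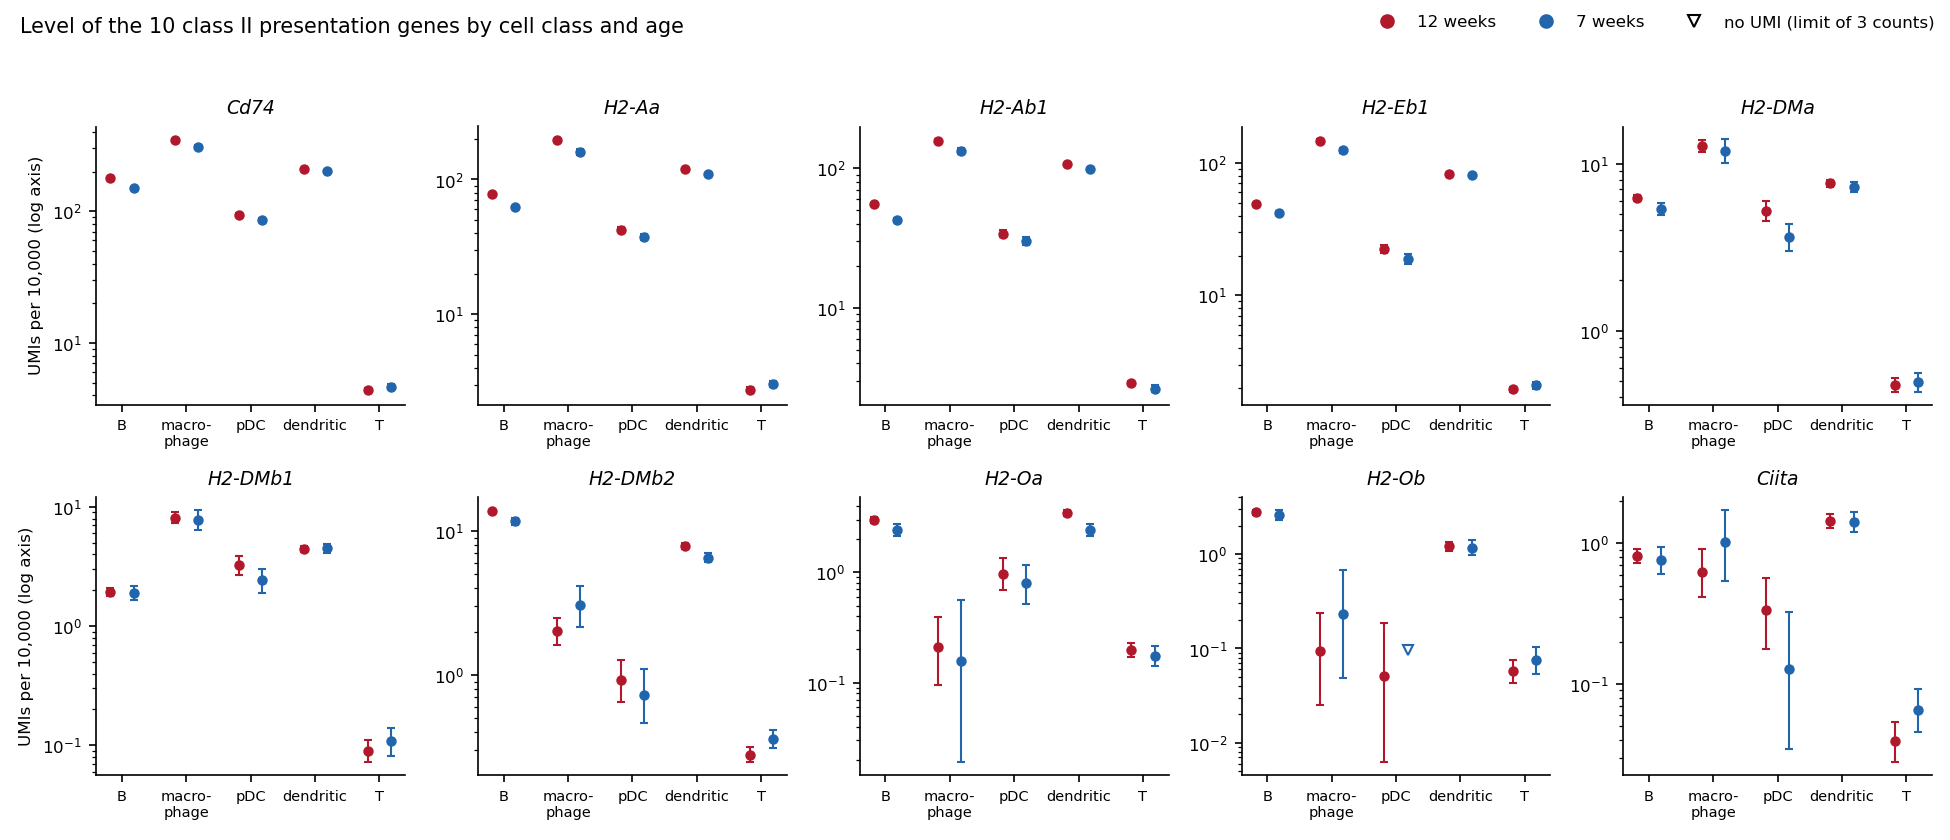
Level of each gene in UMIs per 10000 (logarithmic axes, one panel per gene) in the 5 classes at 12 weeks (red) and 7 weeks (blue), with exact Poisson 95% intervals. An open triangle marks a gene with no UMI, drawn at the limit that a count of 0 allows. Cd74, the classical chains and H2-DMa are highest in macrophages, while H2-DMb2 and H2-Ob are highest in B cells and H2-Oa and H2-Ob are near the T cell level in macrophages.

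Set against T cells, genes were called different between classes of one age when their levels differed at least 2-fold with at least 50 UMIs over both classes. B cells were higher for 10 of 10 genes at both ages, where 6.29% of all genes tested at 12 weeks and 5.23% at 7 weeks were as much higher, and 13.4% and 15.2% as much lower. Macrophages were higher for 8 of 10 at 12 weeks and 7 of the 8 with enough UMIs at 7 weeks, against 11.5% and 13.2% of all genes higher and 27% and 20% lower. Plasmacytoid cells were higher for 9 of 10 and 8 of 8, against 15.3% and 10.6% higher and 16.4% and 13.1% lower. Dendritic cells were higher for 10 of 10 at both ages, against 13% and 9.2% higher and 11.9% lower at either age. None of the 10 genes was called lower than in T cells in these 4 classes. At 12 weeks the exceptions were H2-Oa and H2-Ob in macrophages and H2-Ob in pDCs.

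The invariant chain was more abundant relative to the classical chains in B cells and pDCs than in the other presenting cells. Cd74 made up 49.7% of the UMIs of Cd74 and the 3 classical chains in B cells at 12 weeks and 50.5% at 7 weeks, 41.0% and 42.6% in macrophages, 48.8% and 49.97% in pDCs, and 40.5% and 41.1% in dendritic cells. The difference between B cells and dendritic cells was 9.16 percentage points at 12 weeks (95% interval 8.78 to 9.55) and 9.39 at 7 weeks (8.71 to 10.1). Between macrophages and dendritic cells it was 0.440 points (-0.134 to 1.02) and 1.47 points (0.385 to 2.56). Cells with B cell and plasma cell transcripts (at least 2 Cd79a and 20 Jchain UMIs, 22 cells at 12 weeks and 6 at 7 weeks) had a smaller sum, 136.8 and 84.7 UMIs per 10000, and a larger Cd74 share, 65.1% (63.8 to 66.4) and 63.0% (60.3 to 65.6). Only 6 and 1 of these cells belonged to the B cell class. The other 16 and 5 met more than 1 definition and had been set aside. A CD3 UMI was found in 16 of the 22 and 4 of the 6, and whether any were doublets was not tested.

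The peptide editor H2-DM was scarcer than the classical chains everywhere, and its share differed between classes. H2-DMa, its alpha chain, was at 6.25 UMIs per 10000 in B cells at 12 weeks and 5.33 at 7 weeks, 12.7 and 11.9 in macrophages, 5.20 and 3.63 in pDCs, and 7.63 and 7.28 in dendritic cells. The 3 H2-DM genes together made up 10.7% of H2-DM and classical UMIs in B cells at 12 weeks and 11.4% at 7 weeks, 4.38% and 5.18% in macrophages, 8.64% and 7.27% in pDCs, and 6.08% and 5.96% in dendritic cells. B cells exceeded dendritic cells by 4.66 percentage points (4.38 to 4.94) and 5.47 points (4.95 to 6.004). Macrophages fell short of dendritic cells, with differences of -1.70 points (-2.01 to -1.38) and -0.783 points (-1.39 to -0.125).

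The beta chain genes of H2-DM, H2-DMb1 and H2-DMb2, went opposite ways between B cells and macrophages or dendritic cells. Both were lower in pDCs than in dendritic cells. H2-DMb1 was at 1.95 UMIs per 10000 in B cells at 12 weeks and 1.91 at 7 weeks, 8.15 and 7.81 in macrophages, 3.23 and 2.42 in pDCs, and 4.46 and 4.50 in dendritic cells. H2-DMb2 was at 13.7 and 11.7 in B cells, 2.02 and 3.05 in macrophages, 0.923 and 0.732 in pDCs, and 7.88 and 6.52 in dendritic cells. B cells thus had the most H2-DMb2 and the least H2-DMb1 of the 4 classes, although B cells and pDCs overlapped for H2-DMb1 at 7 weeks, while macrophages had the most H2-DMb1.

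H2-DMb1 was lower in B cells than in dendritic cells, 0.437-fold (0.397 to 0.481) at 12 weeks and 0.425-fold (0.359 to 0.5005) at 7 weeks. H2-DMb2 in B cells was 1.74-fold (1.65 to 1.83) and 1.80-fold (1.64 to 1.97) that in dendritic cells, short of the 2-fold limit. In macrophages H2-DMb2 was 0.256-fold (0.204 to 0.318) and 0.467-fold (0.329 to 0.645) the dendritic level, and in pDCs 0.117-fold (0.0818 to 0.163) and 0.112-fold (0.0706 to 0.170). As a share of both genes, H2-DMb2 was 87.6% in B cells at 12 weeks and 86.0% at 7 weeks, 19.9% and 28.1% in macrophages, 22.2% and 23.2% in pDCs, and 63.9% and 59.2% in dendritic cells. Without the endocrine and stromal cells the dendritic share was 63.85% and 59.25%. B cells exceeded dendritic cells by 23.7 points (21.7 to 25.6) and 26.8 points (23.5 to 30.05). Macrophages differed from dendritic cells by -44.0 points (-47.9 to -39.6) and -31.1 points (-38.5 to -22.7), and pDCs by -41.7 (-47.6 to -34.4) and -36.0 (-43.7 to -26.3).

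Because the genes are close copies, reads could be split between them. The longest coding transcripts of GENCODE agreed at 94.6% of 1219 aligned bases. Over the last 500 bases, which 3′ reads sample, they agreed at 89.2% of 334 aligned bases, their longest shared run was 34 bases and no 50-base stretch was shared, although 361 of 1355 such stretches of the whole transcript were. How reads that matched both were counted is not given in the sources used here.

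**Figure D3:**
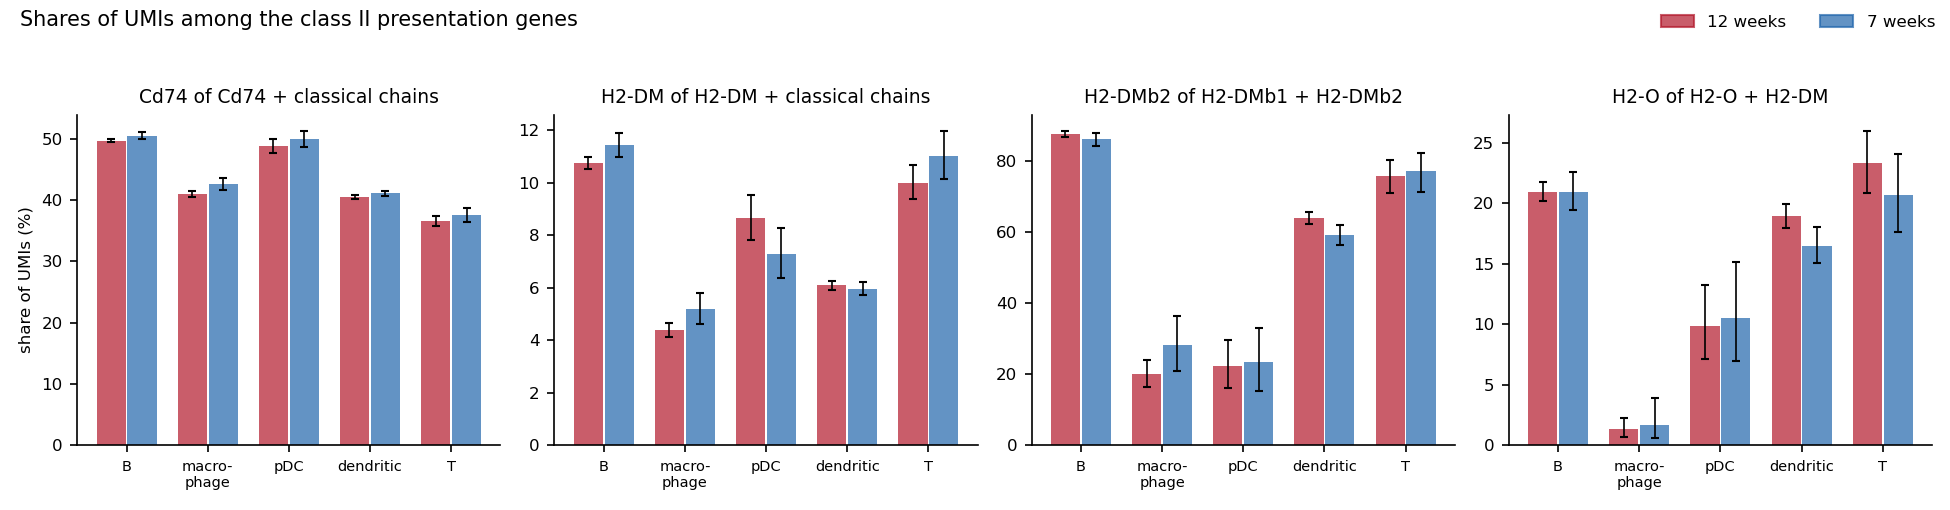
Shares of UMIs in percent for 4 pairs of genes or gene groups, by class, at 12 weeks (red) and 7 weeks (blue), with exact 95% intervals and a separate vertical scale per panel. H2-DMb2 is above 80% of H2-DMb UMIs in B cells and below 30% in macrophages and pDCs, and H2-O is 1.301% and 1.68% of H2-O and H2-DM UMIs in macrophages.

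Dendritic subsets also differed in the balance of the H2-DM beta genes. Cells with at least 5 UMIs of Ccr7, Fscn1 and Ccl22, markers of migratory dendritic cells, numbered 18 at 12 weeks and 12 at 7 weeks, and H2-DMb2 made up 77.1% (72.5 to 81.3) and 66.8% (60.8 to 72.4) of their H2-DMb UMIs. Cells with Xcr1 or Clec9a, markers of the cross-presenting subset cDC1, numbered 24 and 8, and the share was 36.8% (32.3 to 41.4) and 49.1% (41.2 to 57.0). Cells with Cd209a numbered 20 and 16, at 54.8% (49.8 to 59.8) and 52.7% (46.6 to 58.8). The 95 and 34 cells with none of these markers were at 70.4% (68.1 to 72.6) and 62.2% (57.8 to 66.5). At 12 weeks the Xcr1- or Clec9a-positive cells were the only one of these 4 subsets with less H2-DMb2 than H2-DMb1, at 4.05 and 6.96 UMIs per 10000, and at 7 weeks the genes were level in them, at 4.77 and 4.95. The sum of the 10 genes was 753 UMIs per 10000 at 12 weeks and 652 at 7 weeks in Ccr7-high cells, 642 and 524 in Xcr1- or Clec9a-positive cells, 804 and 635 in Cd209a-positive cells and 515 and 424 in the rest.

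**Figure D4:**
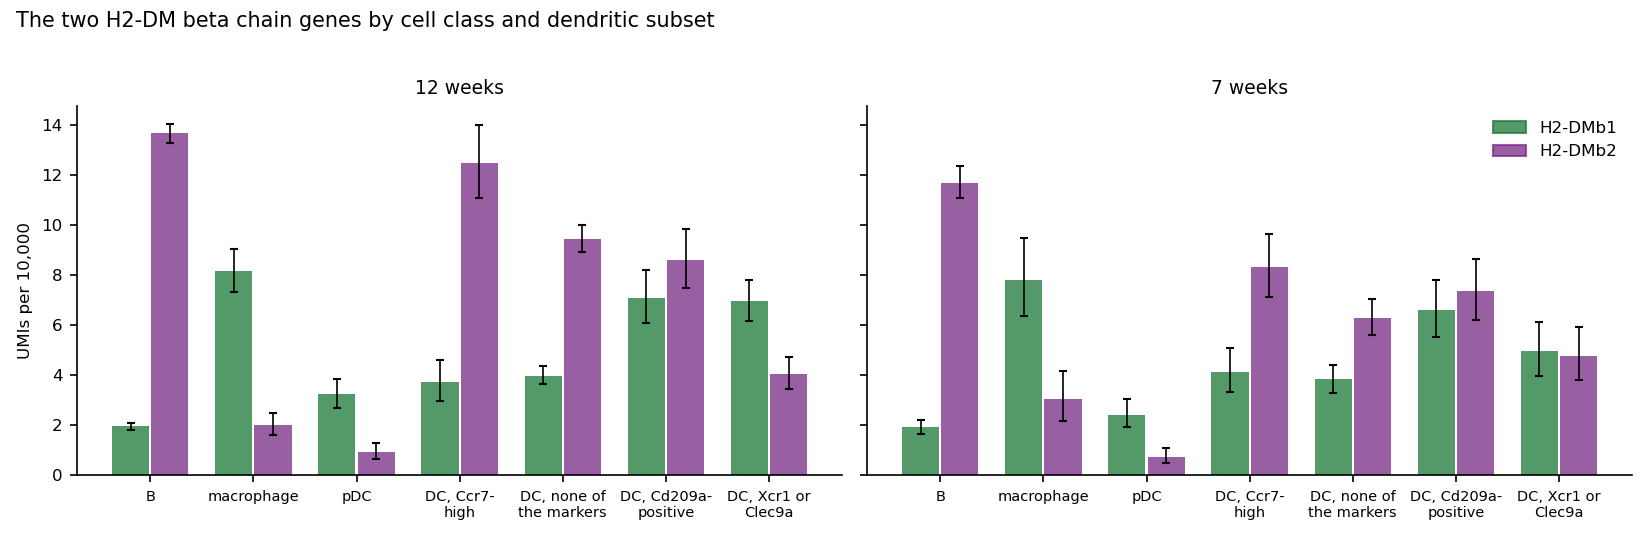
H2-DMb1 (green) and H2-DMb2 (purple) in UMIs per 10000, with exact Poisson 95% intervals, in B cells, macrophages, pDCs and 4 subsets of the dendritic class (DC), at 12 weeks (left) and 7 weeks (right). In B cells the purple bars are 13.7 and 11.7 and the green bars 1.95 and 1.91, and in macrophages and pDCs the green bars are the taller.

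H2-O, the inhibitor of H2-DM, was found in B cells and dendritic cells, while in macrophages it was at the level of T cells. H2-Ob, its beta chain, was at 2.78 UMIs per 10000 in B cells at 12 weeks (1036 UMIs) and 2.59 at 7 weeks (282 UMIs), and at 1.20 and 1.17 in dendritic cells. The B over dendritic ratio was 2.31 (2.02 to 2.64) and 2.20 (1.78 to 2.74). Macrophages held 4 and 3 UMIs of H2-Ob in all, and pDCs 2 and 0, where a count of 0 allows up to 0.0954 UMIs per 10000. T cells were at 0.0577 and 0.0752, and the levels of macrophages, pDCs and T cells overlapped. The B cell marker sum was 0.622 and 0.266 UMIs per 10000 in dendritic cells, against 35.2 and 30.5 in B cells, and the part of B cell material in their H2-Ob was not tested.

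H2-Oa, the alpha chain, was distributed differently from its partner. It was at 3.002 UMIs per 10000 in B cells at 12 weeks and 2.43 at 7 weeks, 0.209 and 0.156 in macrophages (9 and 2 UMIs), 0.974 and 0.795 in pDCs, and 3.46 and 2.44 in dendritic cells. Dendritic cells were above B cells at 12 weeks, with a B over dendritic ratio of 0.869 (0.793 to 0.952), and at 7 weeks the ratio of 0.997 (0.838 to 1.19) did not set them apart. H2-Oa made up 51.9% and 48.5% of H2-O UMIs in B cells and 74.1% and 67.5% in dendritic cells, a difference of -22.3 points (-25.5 to -18.9) at 12 weeks and -19.1 points (-25.1 to -12.7) at 7 weeks. In pDCs it was 38 of 40 UMIs at 12 weeks and 25 of 25 at 7 weeks, so that H2-Oa, which was above the T cell levels of 0.199 and 0.175 there, was found with almost none of its partner.

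As a share of H2-O and H2-DM together, H2-O was 20.9% in B cells at both ages, 1.301% and 1.68% in macrophages, 9.88% and 10.5% in pDCs, and 18.9% and 16.5% in dendritic cells. Macrophages were below dendritic cells by -17.6 points (-18.8 to -16.3) and -14.8 points (-16.6 to -12.2). B cells were above dendritic cells by 1.99 points (0.699 to 3.26) and 4.45 points (2.29 to 6.60), and at 12 weeks this fell to 0.520 points when cells with any CD3 UMI were left out.

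The share of cells with a UMI depends on depth, so each cell was also thinned to 3000 UMIs. H2-Ob was then found in 58.3% of B cells at 12 weeks and 53.3% at 7 weeks (75.5% and 70.3% unthinned), in 0 of 33 and 0 of 11 macrophages, with exact upper limits of 10.6% and 28.5% (12.1% and 18.2% unthinned), in 1 of 49 and 0 of 29 pDCs (4.08% and 0% unthinned), and in 31.2% and 21.1% of dendritic cells (62.4% and 66.2% unthinned). Among T cells without myeloid transcripts the thinned share was 1.59% and 1.17%, and the macrophage and pDC values are within counting error of it. H2-DMb2 was found in 96.9% and 96.4% of thinned B cells, 48.5% and 36.4% of macrophages, 36.7% and 17.2% of pDCs, 73.5% and 71.8% of dendritic cells and 4.74% and 4.47% of T cells. In all, 6 B cells and 44 T cells of the 7-week library were too shallow to thin.

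Ciita, the coactivator of the whole group, was among the least abundant of the 10 and did not rank the classes as its targets did. It was at 0.812 UMIs per 10000 in B cells at 12 weeks and 0.762 at 7 weeks, 0.627 and 1.02 in macrophages (27 and 13 UMIs), 0.333 and 0.127 in pDCs (13 and 4 UMIs), 1.44 and 1.42 in dendritic cells, and 0.0391 and 0.0656 in T cells. Macrophages, highest in Cd74, had 0.434-fold (0.282 to 0.643) the dendritic level at 12 weeks, and at 7 weeks the ratio of 0.714 (0.372 to 1.26) did not set them apart. B cells had 0.562-fold (0.480 to 0.658) and 0.536-fold (0.405 to 0.704) the dendritic level.

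Counted over the 10 genes against dendritic cells, with the 2-fold limit, B cells had 1 higher (H2-Ob) and 1 lower (H2-DMb1) at 12 weeks, where 7.21% of all genes tested were higher and 15.1% lower. At 7 weeks they had 1 higher (H2-Ob) and 2 lower (H2-DMb1, H2-Ab1), against 7.12% and 15.7%. Macrophages had 0 higher and 4 lower at 12 weeks (H2-DMb2, H2-Oa, H2-Ob, Ciita), against 6.8% and 17.5% of all genes, and 0 higher and 3 lower at 7 weeks (the same without Ciita), against 6.44% and 15.9%. Plasmacytoid cells had 0 higher and 8 lower at 12 weeks, against 12% and 15.7%, and 0 higher and 9 lower at 7 weeks, against 8.95% and 10.9%. Against B cells, macrophages had 5 higher and 3 lower at 12 weeks, where 12.1% and 24.8% of all genes were, and 6 higher and 3 lower at 7 weeks, where 12.6% and 22.2% were. Plasmacytoid cells had 0 higher and 5 lower than in B cells at both ages, against 16.1% and 12% of all genes at 12 weeks and 14.5% and 8.01% at 7 weeks.

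From cell to cell, Cd74 rose and fell with the classical chains more than with Ciita. Across the 157 dendritic cells without endocrine or stromal transcripts at 12 weeks, and the 70 at 7 weeks, the Pearson r between Cd74 and H2-Eb1 was 0.889 and 0.840. Across B cells it was 0.633 and 0.715, and between Cd74 and Ciita 0.116 and 0.193. H2-DMb1 and H2-DMb2 were nearly unrelated across dendritic cells, at -0.115 and 0.0834, and H2-Oa and H2-Ob across B cells, at 0.0477 and -0.0444. Other classes differed. H2-Oa and H2-Ob were at 0.442 and 0.408 across dendritic cells. H2-DMb1 and H2-DMb2 were at 0.216 and 0.291 across B cells, 0.475 and 0.195 across pDCs and 0.429 and 0.742 across macrophages. These cells share a library and their depth, and low counts pull r toward 0, so the values are descriptions only.

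Between the ages, the 10 genes together stood higher at 12 weeks than at 7 weeks in the 4 presenting classes by 1.06- to 1.21-fold, less than the 1.5-fold used here to call a gene. The ratio was 1.21 (1.20 to 1.23) in B cells, 1.16 (1.13 to 1.19) in macrophages, 1.13 (1.09 to 1.17) in pDCs and 1.06 (1.05 to 1.07) in dendritic cells, and 0.956 (0.929 to 0.985) in T cells. Without the cells carrying endocrine or stromal transcripts, dendritic cells held 599.6 UMIs per 10000 at 12 weeks and 524 at 7 weeks, a ratio of 1.14 (1.13 to 1.16). Counting only cells with no CD3 UMI, the ratio in dendritic cells and pDCs fell below 1, and in pDCs so did thinning and weighing each cell alike. The 7-week pDC class held 7.44 CD3 UMIs per 10000, against 1.33 at 12 weeks, and the part of these cells in its ratios was not tested. The age of the mice and the library cannot be told apart.

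In B cells all 10 genes had a ratio above 1, and for 7 of them the counting interval lay above 1. H2-Ab1 had the highest ratio, 1.296 (55.3 UMIs per 10000 at 12 weeks, 42.7 at 7 weeks), followed by H2-Aa at 1.24, H2-Oa at 1.23 and Cd74 at 1.20. None of the 10 passed 1.5-fold, where 8.59% of all genes tested in B cells were as much higher and 7.41% as much lower. Without B cells of 3 or more CD3 UMIs, 7 of 10 genes were above 1, with H2-DMb1 at 0.948, H2-Ob at 0.9996 and Ciita at 0.956, and 0 of 10 were called, against 12.9% and 7.1%. With all B cells the median log2 ratio was 0.23 over the 10 genes and 0.07 over all genes tested. Without B cells of 3 or more CD3 UMIs it was 0.16 and 0.11.

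In macrophages 7 of the 10 genes reached 50 UMIs over both ages, 0 were called higher and H2-DMb2 was called lower at 12 weeks, against 15.4% and 12.1% of all genes. H2-DMb2 held 2.02 UMIs per 10000 at 12 weeks (87 UMIs in 33 cells) and 3.05 at 7 weeks (39 UMIs in 11 cells), a ratio of 0.663 (0.450 to 0.994). Without the 5 cells richest in the 10 genes the ratio was 0.951 and was not called. It turned to a higher level at 12 weeks, with log2 ratios of 0.52 and 0.71, when macrophages with a CD3 UMI were left out and when cells were thinned before they were assigned. Leaving out macrophages with a CD3 UMI kept 20 cells at 12 weeks and 2 at 7 weeks, and 5 genes were then called higher (Cd74, H2-Aa, H2-Ab1, H2-Eb1, H2-DMb1). The share of all genes called was not computed for those cells. With all macrophages, Cd74, H2-Aa, H2-Ab1 and H2-Eb1 had ratios between 1.12 and 1.22.

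In pDCs 8 genes could be compared and 0 were called, against 14.5% of all genes higher and 9.43% lower. H2-DMa, at 5.20 UMIs per 10000 at 12 weeks and 3.63 at 7 weeks, had the highest ratio of these, 1.44 (1.135 to 1.821). In dendritic cells 0 of 10 were called, against 10.3% and 9.33%. H2-Oa came closest at 1.42 (1.23 to 1.63), with 3.46 UMIs per 10000 at 12 weeks and 2.44 at 7 weeks, and passed the limit at 1.53 without the endocrine and stromal cells, where 9.56% of all genes were called higher and 8.3% lower. In T cells Ciita was called lower at 12 weeks, on 38 and 34 UMIs, and none of the 10 higher, against 7.61% and 3.03% of all genes. The ratio of 0.597 for Ciita lay between 0.678 and 0.821, and was not called, without the doublet filter, with each definition applied alone, as a mean over cells or without the 5 richest cells, and it was 1.07 after thinning. With 3 CD3 UMIs required of a T cell, 6 genes were called lower, Cd74 at 0.312 and H2-Aa at 0.499 among them. The share of all genes called was not computed under that requirement. Without T cells carrying myeloid transcripts Ciita had 10 and 9 UMIs, too few to be compared, and 0 of the 7 genes with enough UMIs were called, against 4.1% of all genes higher and 7.7% lower.

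Shares within the group of genes differed between the ages by a few points in most classes. H2-DM as a share of H2-DM and classical UMIs differed by -0.688 points (-1.21 to -0.181) between 12 and 7 weeks in B cells, -0.800 points (-1.46 to -0.186) in macrophages, 1.38 points (0.0906 to 2.63) in pDCs and 0.121 points (-0.187 to 0.422) in dendritic cells. H2-O as a share of H2-O and H2-DM differed by -0.0267 points (-1.81 to 1.69) in B cells and by 2.44 points (0.603 to 4.20) in dendritic cells. H2-DMb2 as a share of H2-DMb1 and H2-DMb2 differed by 1.57 points (-0.320 to 3.601) in B cells, -8.20 points (-16.9 to -0.309) in macrophages and 4.68 points (1.41 to 7.98) in dendritic cells. H2-Oa as a share of H2-O differed by 6.62 points (1.44 to 12.01) in dendritic cells.

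**Figure D5:**
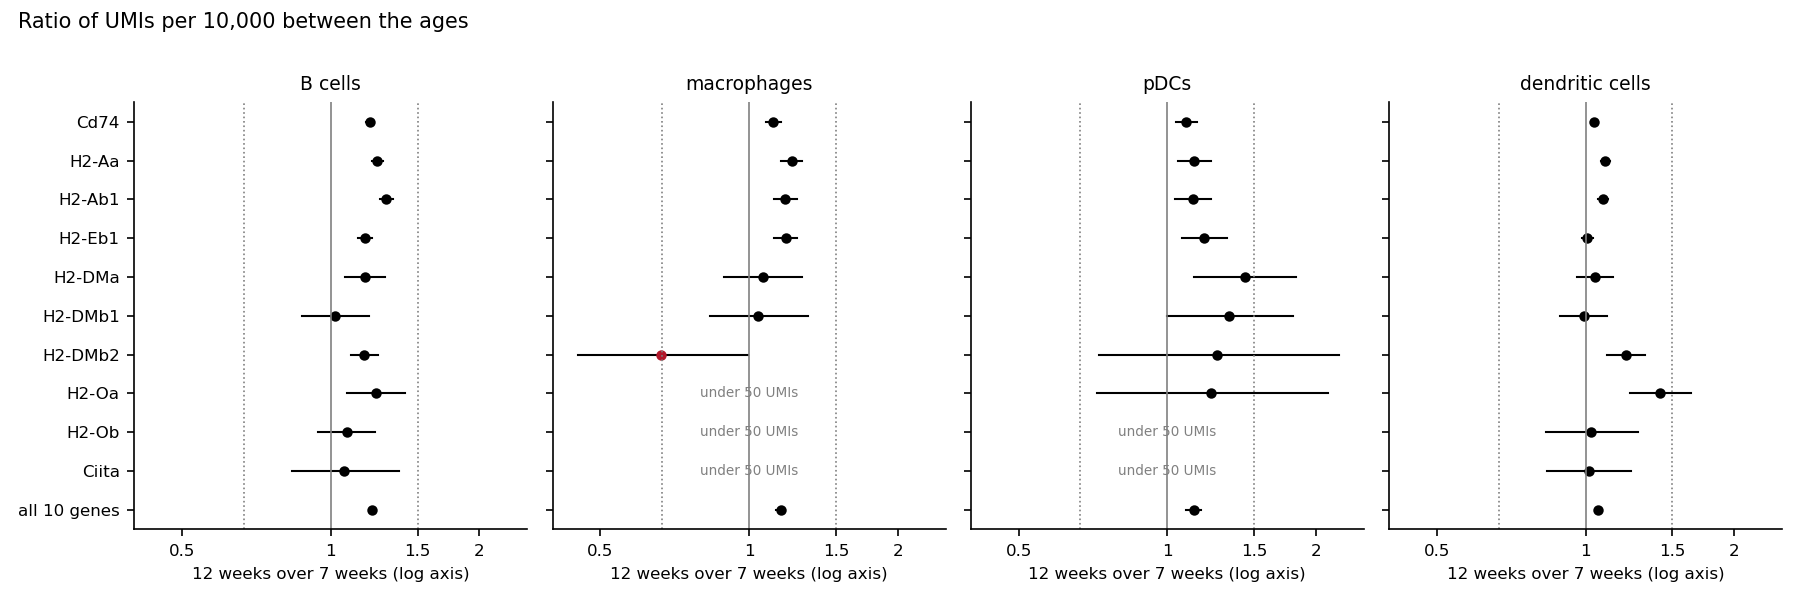
Ratio of UMIs per 10000 at 12 weeks over 7 weeks (logarithmic axis) for each gene and for all 10 together in 4 classes, with 95% counting intervals. Solid and dotted vertical lines mark no difference and the 1.5-fold limits, and the red point marks a gene past a limit. Most points lie between 1 and 1.5, and H2-DMb2 in macrophages is at 0.663.

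Other genes of the pathway were examined in lists. The endosomal proteases and the thiol reductase prepare peptides and cut the invariant chain. In macrophages 7 of 10 of these genes were at least 2-fold above dendritic cells and 0 below at 12 weeks, against 6.8% and 17.5% of all genes, and 7 of 9 and 0 at 7 weeks, against 6.44% and 15.9%. Ctss, the protease that makes the last cut before CLIP in antigen-presenting cells, was at 5.77 UMIs per 10000 in B cells at 12 weeks and 4.40 at 7 weeks, 44.4 and 32.9 in macrophages, 13.3 and 9.64 in pDCs and 12.6 and 10.2 in dendritic cells. Ifi30, the reductase GILT, was at 6.53 and 6.28 in B cells, 17 and 8.75 in macrophages, 3.15 and 2.77 in pDCs and 13.4 and 9.84 in dendritic cells. Ctsb, cathepsin B, was at 0.814 and 0.532 in B cells, 22.6 and 16.0 in macrophages, 24.4 and 15.4 in pDCs and 2.88 and 2.98 in dendritic cells. Ctsl, the protease that cuts the invariant chain in thymic epithelium, was at 13.9 and 7.76 in pDCs and below 3 in the other classes.

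Between the ages, the list was called higher at 12 weeks for 5 of 9 genes tested in pDCs (14.5% of all genes), 3 of 9 in macrophages (15.4%), 3 of 9 in B cells (8.59%), 2 of 10 in dendritic cells (10.3%) and 0 of 10 in T cells (3.03%). In these 5 classes 0 were called lower, against 9.43%, 12.1%, 7.41%, 9.33% and 7.61% of all genes in the same order. In pDCs the genes called higher were Ctsl (1.79), Ctsh (1.67), Ctsb (1.59), Ctsz (1.65) and Lgmn (4.19, on 52 and 10 UMIs). The pDC marker list also summed higher in this class at 12 weeks, 120.9 against 78.8 UMIs per 10000. CD3 transcripts were lower there, 1.33 against 7.44, and the part of this class make-up in the pDC calls was not tested. In macrophages the genes called higher were Ctsd (2.58), Ifi30 (1.94) and the inhibitor gene Cstb (1.60). In B cells they were Ctsb (1.53), Lgmn (1.59) and Sppl2a (1.79), the protease that clears the stub of the invariant chain from the membrane, and Ctsb fell short at 1.32 without B cells of 3 or more CD3 UMIs. In dendritic cells Ctsl was at 4.46-fold with all cells and Lgmn at 1.78-fold. Without the endocrine and stromal cells Ctsl had too few UMIs (21 and 7). Lgmn was then the only gene of 9 called, at 1.66-fold, against 9.56% of all genes higher and 8.3% lower.

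Of the genes that act on class II molecules at the surface, 1 of 3 with enough UMIs was called higher at 12 weeks in macrophages (15.4% of all genes), 1 of 4 in dendritic cells (10.3%) and 0 of 3 in B cells (8.59%). None was called lower, against 12.1%, 9.33% and 7.41% of all genes in the same order. March1, whose product marks class II for degradation, was at 0.699 UMIs per 10000 in B cells at 12 weeks and 0.909 at 7 weeks, and at 0.664 and 0.477 in dendritic cells. Cd83, which opposes it, was at 3.86 and 3.71 in B cells, 1.63 and 1.17 in macrophages, 0.179 and 0.0318 in pDCs and 1.12 and 1.10 in dendritic cells. Cd82 was at 3.27 and 2.84 in T cells, 1.06 and 0.835 in B cells and 1.84 and 1.79 in dendritic cells. Cd63 was called higher at 12 weeks in macrophages, 9.80 against 4.14 (2.37-fold), and in dendritic cells, 1.19 against 0.404 (2.96-fold). Without the endocrine and stromal cells Cd63 was not called in dendritic cells. March1 was then called, at 1.52-fold (1.10 to 2.12), as 1 of 4 genes, against 9.56% of all genes higher.

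The genes of the proteins that CIITA docks on were low. Against T cells, B cells had 1 of 7 called higher and 0 lower at 12 weeks and 0 higher and 1 lower at 7 weeks, against 6.29% and 13.4% of all genes at 12 weeks and 5.23% and 15.2% at 7 weeks. Dendritic cells had 0 higher and 0 lower at 12 weeks and 1 and 1 at 7 weeks, against 13% and 11.9%, and 9.2% and 11.9%. Nfyb was at 0.422 UMIs per 10000 in B cells at 12 weeks and 0.321 at 7 weeks, 0.307 and 0.239 in dendritic cells and 0.552 and 0.571 in T cells. Creb1 was at 0.331 and 0.413 in B cells, 0.388 and 0.394 in dendritic cells and 0.353 and 0.386 in T cells. Between the ages, 2 of 7 were called higher at 12 weeks and 1 lower in B cells, against 8.59% and 7.41% of all genes. In dendritic cells 0 of 6 were called higher and 2 lower, against 10.3% and 9.33%. In T cells 0 of 7 were called higher and 1 lower, against 3.03% and 7.61%. Rfxap, a subunit of RFX, was called lower at 12 weeks in B cells (0.378-fold, 0.0833 against 0.220 UMIs per 10000), dendritic cells (0.464-fold) and T cells (0.3998-fold, 113 and 151 UMIs). Rfxank (1.72) and Nfya (1.60) were called higher in B cells with counting intervals that reached below 1, and Rfx5 was called lower in dendritic cells (0.646) with one that reached above 1. Without B cells of 3 or more CD3 UMIs Nfya was not called (1.487) and Nfyb was (1.52), and without the endocrine and stromal cells Rfx5 was not called (0.668).

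Among the costimulatory genes, 1 of 3 with enough UMIs was called higher at 12 weeks in macrophages, against 15.4% of all genes. In dendritic cells 1 of 5 was called lower, against 9.33%, and in T cells 1 of 5, against 7.61%. In B cells 0 of 4 were called, against 8.59% higher and 7.41% lower. Cd86 was at 0.693 UMIs per 10000 in B cells at 12 weeks and 0.707 at 7 weeks, 1.74 and 0.937 in macrophages, where it was called higher, and 1.91 and 1.87 in dendritic cells. Cd40 was at 1.23 and 1.18 in B cells and 1.18 and 1.89 in dendritic cells, where it was called lower at 0.627-fold (0.521 to 0.754), but not once the endocrine and stromal cells were left out. Icosl was at 0.728 and 0.909 in B cells and 0.549 and 0.550 in dendritic cells, and it was called lower in T cells (0.519-fold, on 35 and 36 UMIs). Without T cells carrying myeloid transcripts Icosl had 17 and 7 UMIs, too few to be compared. In those cells Cd86 was called higher (1.55-fold, on 43 and 13 UMIs) and the protease gene Lgmn lower (0.558-fold, on 31 and 26 UMIs). There 4.1% of all genes were called higher and 7.7% lower. All 5 genes of the list were called lower in pDCs than in dendritic cells at 12 weeks, and 4 of 4 with enough UMIs at 7 weeks, against 15.7% and 10.9% of all genes.

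H2-Eb2, a further class II beta gene of the same cluster, was called higher at 12 weeks in dendritic cells. It held 0.571 UMIs per 10000 at 12 weeks (134 UMIs) and 0.257 at 7 weeks (28 UMIs), a ratio of 2.22 (1.47 to 3.47), and 2.41 (1.59 to 3.76) without the endocrine and stromal cells. Of all genes, 10.3% and 9.56% were called higher in these comparisons. At 7 weeks 5 of the 71 cells held 50% of the H2-Eb2 UMIs. The gene was not run under the other alternatives. In B cells it was at 0.572 and 0.578, with no such difference.

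The genes whose levels followed Cd74 most closely over the 10 sums of class and age were found by Pearson r of log2(UMIs per 10000 + 0.1) among 7747 genes. They were BC028528 (r = 0.984), Fgd2 (0.979), Lyn (0.966), Irf5 (0.965), Ifi30 (0.958), Ehd4 (0.956), Nrros (0.955) and Themis2 (0.955). For H2-Ob they were H3f3a (0.969), Mpv17l (0.965), Ccr6 (0.9602), Lrrk2 (0.959), Smagp (0.954), Rasgrp3 (0.952), Dennd4a (0.937) and Trim7 (0.934). The 10 sums come from 2 libraries and 5 classes, so these values rank genes and carry no test.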

How the data were processed

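Values deposited by the authors are raw UMI counts, whole numbers by gene and barcode with no normalization. The submitters' processing notes name Cell Ranger 1.3.1 and mm10, and no source used here gives the gene annotation. The matrices held 2812 barcodes and 19288252 UMIs at 12 weeks, and 1113 barcodes and 8701184 UMIs at 7 weeks. A floor of 200 genes and a ceiling of 10% mitochondrial UMIs took out 8 and 4 barcodes. Doublets were scored with Scrublet (scanpy 1.11.5), and because its automatic threshold called only 0.785% and 0.180%, the highest scores were removed up to 0.8% per 1000 barcodes (63 and 10 barcodes). A median of 4934 and 5643 UMIs per cell remained.

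UMIs were summed per class and library and divided by the class total. A count of 0 allows up to 3 counts. Genes were called by fold alone, at least 1.5 between ages and 2 between classes, with at least 50 UMIs, and intervals are at the 95% level. The calculations (Python 3.11.15, scipy 1.17.1) were tested on simulated data. Named genes follow a rule: the 10 genes, the 2 to 4 members of each pathway list with most UMIs and any past the fold, and the 8 genes most like Cd74 and H2-Ob. Genes, lists and rules were chosen with earlier results of these data known. The subsets without endocrine, stromal or myeloid transcripts or without 3 or more CD3 UMIs, and the H2-DMb2 share were added after the values were seen, and the dendritic and Jchain subsets were set together with the check markers. H2-Ea-ps and 2 of the 7 T cell check markers (Trbc1, Trbc2) were not analysed here. Alternatives covered the doublet filter, class definitions, CD3 UMIs, depth, weighing of cells and the denominator. One marker of the B cell check list is not reported here, and its sums leave it out.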

Additional observations from a re-analysis of the deposited data

Results flagged for a closer look

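With 1 library per age, no difference between classes in the effect of age was tested. Directions that differed between classes were as follows. All 10 genes together had a 12 over 7 week ratio of 1.21 in B cells, 1.06 in dendritic cells, 1.16 in macrophages and 1.13 in pDCs, and 0.956 in T cells. Cd74 was at 1.20, 1.04, 1.12 and 1.09 in these 4 presenting classes and 0.939 in T cells. H2-Aa was at 1.24, 1.10, 1.22 and 1.14, and 0.904 in T cells. H2-DMb2 was at 1.17 in B cells and 1.21 in dendritic cells, and at 0.663 in macrophages and 0.773 in T cells. The T cell direction of H2-DMb2 turned, to 1.67 after thinning and 1.09 without T cells carrying myeloid transcripts. T cells without myeloid transcripts had a ratio of 0.996 (0.938 to 1.06) for all 10 genes.

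Cells outside the comparisons also carried the genes. The 203 cells at 12 weeks in no class held 98.1 UMIs of the 10 genes per 10000, and the 68 at 7 weeks 28.5. Of these, 150 and 44 held a CD3 UMI and were outside the T cell class for their 1 Cd79a UMI. The median among cells with 1 Cd79a UMI was 5.29 and 5.12. The 29 and 7 cells that met more than 1 definition held 272 and 68.1, and 16 of the 29 and 5 of the 7 had at least 20 Jchain UMIs.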

How the results depend on the processing

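No paired analysis was possible because each age has 1 library. The B over dendritic differences in H2-DM, H2-O and H2-DMb2 share and the macrophage over dendritic difference in H2-DMb2 share kept their direction under every alternative run. Their values moved beyond counting error as follows: the H2-DM share at 12 weeks to 4.33 with each definition applied alone and 5.66 points when thinned, the H2-O share at 12 weeks to 0.520 without CD3-positive cells, the B cell H2-DMb2 share at 12 weeks to 21.5 (alone), 21.1 (no CD3) and 31.2 (thinned) and at 7 weeks to 22.9 (thinned), and the macrophage one to -34.6 and -49.2 (thinned, 12 and 7 weeks).

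The age ratios were less stable; log2 ratios of all 10 genes follow, and causes were not tested. In B cells 0.28 became 0.26 with no doublet filter, 0.41 (alone), 0.21 (no CD3), 0.30 without the 5 richest cells, 0.24 with member UMIs outside the denominator, 0.32 without Jchain-rich cells and 0.20 without cells of 3 or more CD3 UMIs. In macrophages 0.21 became 0.072 (alone), 0.71 (no CD3), 0.30 (thinned), 0.28 (mean over cells), 0.46 (without 5) and 0.15 (denominator). In pDCs 0.18 became -0.28 (no CD3), -0.068 (thinned), -0.071 (mean), 0.30 (without 5) and 0.11 (denominator). In dendritic cells 0.08 became 0.11 (no doublet filter), 0.18 (alone), -0.0072 (no CD3), 0.32 (thinned), 0.18 (mean), 0.15 (without 5), 0.033 (denominator) and 0.19 (no endocrine or stromal cells). In T cells -0.06 became -0.12 (alone), 0.26 (thinned), 0.10 (without 5), -1.08 with 3 CD3 UMIs required and -0.0054 without myeloid transcripts.

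Genes past 1.5-fold numbered 1 instead of 0 in dendritic cells (H2-Oa; alone, no CD3, mean, no endocrine or stromal cells) and 1 instead of 0 in pDCs (without 5). In macrophages they numbered 0 (alone, thinned) or 5 (no CD3) instead of 1, and without 5 the 1 gene was H2-Ab1 (1.52) instead of H2-DMb2. In T cells they numbered 0 (no doublet filter, alone, mean, without 5, no myeloid transcripts), 3 (thinned) or 6 (3 CD3 UMIs) instead of 1. Shares of all genes were not computed for the alternatives no doublet filter, alone, no CD3, thinned, mean, without 5 and 3 CD3 UMIs. Of 365 single-gene log2 ratios, 245 stayed within counting error, 117 left it and 3 were called and changed direction. Called or not, 65 of the 365 changed direction. The 3 were H2-DMb2 in macrophages at 0.52 (no CD3) and 0.71 (thinned), and Ciita in T cells at 0.092 (thinned). The 11 macrophages and 29 pDCs of the 7-week library limit every value that rests on them.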

Other observations

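The 2-fold comparisons with T cells above used the full T class. A narrower background was formed by T cells in which no Spi1 and fewer than 3 Cst3 UMIs were found, 1322 at 12 weeks and 554 at 7 weeks. The source of the class II UMIs in these cells was not tested, and RNA free in the droplets was not estimated. At least 1 UMI of the 10 genes was found in 88.4% and 89.7% of them, at 4.79 and 4.81 UMIs per 10000 in all. Cd74 made up 19.8% (18.5 to 21.2) of these UMIs at 12 weeks and 22.0% (19.98 to 24.2) at 7 weeks, against 46.1% and 46.6% in B cells, 39.9% and 41.2% in macrophages, 46.3% and 47.8% in pDCs, and 38.6% and 39.3% in dendritic cells. H2-Ab1, at 1.20 and 1.23 UMIs per 10000, and H2-Aa, at 1.16 and 1.19, were above Cd74, at 0.9502 and 1.06, whereas Cd74 led in every presenting class at both ages. H2-DMa made up 7.69% and 6.65% of their member UMIs. The T cells with Spi1 or Cst3 transcripts, 281 and 184, held 34.1 and 28.7 UMIs per 10000 with a Cd74 share of 38.2% and 37.4%.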
